A study of Homo sapiens with 8 samples.

Results

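UWB1.289 is a human ovarian cancer cell line without functional BRCA1, and UWB1.289+BRCA1 is the same line with BRCA1 restored. RNA of UWB1.289+BRCA1 cells made resistant to PARP inhibitors was compared here with that of their BRCA1-proficient parental line, by counts of sequenced reads per gene. The members of this comparison were chosen by the library titles and are 4 of the 8 libraries of the study: 2 of parental BRCA1-proficient cells at passage 10 and 2 of resistant BRCA1-proficient cells, called OlresBRCA1-proficient in the labels, at passage 45. The remaining 4 libraries are from BRCA1-deficient UWB1.289 cells, 2 parental at passage 29 and 2 resistant at passage 56, and serve below as the pair against which the response of the proficient cells was tested. All 4 groups were grown in medium without drug, so the libraries were made without a PARP inhibitor present. Passage number and resistance changed together in both pairs and cannot be told apart. Whether the resistant cells are 1 clone or a pool is not given in the sources used here, and nothing in the labels says that replicates came from separate cultures, so the spread behind each p-value is that between 2 libraries and may be no more than technical.

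BRCA1 brings PALB2 and BRCA2 to resected DNA breaks, where homologous recombination restores the sequence from the sister chromatid, while 53BP1, RIF1 and shieldin shield the ends from resection. PARP1 binds single-strand breaks and marks them with poly(ADP-ribose), and PARP inhibitors hold the enzyme on DNA, where it collides with replication forks. Known routes to resistance include regained recombination, lost end protection, loss of PARP1 or of its eraser PARG, drug efflux through ABCB1, and better protection of forks. Cells in which BRCA1 works start from a different point, since recombination is available to them from the outset.

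The 4 proficient libraries held 24094821 to 29557609 counts. Of 32803 genes, 16221 were counted highly enough to be tested. Levels are counts scaled to library size (CPM), given as the values of parental replicates 1 and 2 and then of resistant replicates 1 and 2, and differences as log2 fold changes, resistant over parental, with the SE of edgeR's quasi-likelihood test. A gene rose or fell where its Benjamini-Hochberg adjusted p over all genes tested was under 0.05. By this rule 4205 genes (25.9%) rose and 4505 (27.8%) fell, 1684 (10.4%) rose and 1583 (9.76%) fell at least 2-fold, and the median log2 fold change of all genes tested was -0.0017. Change was thus common, and each group of genes below is read against these shares. With 2 libraries a side, 76.4% of all genes had parental and resistant values that did not overlap, 37.8% upward and 38.6% downward, so the lack of overlap alone says little about a gene. The main axis of variation among the 4 libraries, with 86.3% of the variance of log2 CPM, ran between parental and resistant. By the test of the difference, 3681 genes (22.7%) changed at least 2-fold more or less in proficient than in deficient cells. Fold changes followed the share of G and C bases of the genes (GC content) in the deficient pair (Spearman rho 0.457), and hardly in the proficient pair (0.0826). With this trend removed, 3285 genes differed. The deficient values of the gene lists below were not recomputed without it, so their contrasts between pairs may hold part of this trend. All 14 markers of ovarian carcinoma cells were above 1 CPM in the resistant and 13 in the parental libraries, WT1 being the exception, with summed levels of 4389 to 4924 and 3811 to 4200.0 CPM. Summed markers of leukocytes (18.6 to 18.6 CPM parental, 28.7 to 29.9 CPM resistant), endothelium (3.98 to 5.48, 8.12 to 8.87 CPM), fibroblasts (47.9 to 48.4, 30.5 to 31.5 CPM) and erythroid cells (at most 0.282 CPM) were lower, and MS4A1, CD3E, NKG7, PDGFRB, HBB, HBA1 and HBA2 had no count. Not all members were near 0. The leukocyte marker CD14 rose from a mean of 2.47 to 21.3 CPM. PTPRC of the same list (12.8 to 6.24 CPM) and the fibroblast marker COL1A2 (46.4 to 28.5 CPM) fell. In such bulk libraries, fewer cells that express a gene and less RNA per cell cannot be told apart.

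BRCA1 itself was more than 10 times as abundant in the resistant cells. The parental libraries held 212 and 191 CPM and the resistant libraries 2176 and 2366 CPM, a log2 fold change of 3.49 ± 0.07 (SE, edgeR adjusted p = 1.06e-10). In the BRCA1-deficient pair the levels were 36.1 and 35.1 and then 34.7 and 34.8 CPM, and the difference between the backgrounds was 3.53 ± 0.10 on the log2 scale (edgeR adjusted p = 1.66e-09). Counts are per gene symbol, so reads of the introduced BRCA1 and of the gene's own locus are summed.

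The genes that work with BRCA1 in homologous recombination did not rise with it. Of 37 such genes, 4 rose and 20 fell, beside 25.9% and 27.8% of all genes tested, with a median log2 fold change of -0.30. Of 11 genes of resection, the first step, and of dissolution, the last, 9 fell and 0 rose, with a median of -0.51. EXO1, the exonuclease of long-range resection, went from 99.7 and 102 CPM to 39.9 and 45.2 CPM, and both resistant libraries lay below both parental ones. DNA2 (-0.77), RAD50 (-0.71) and MRE11 (-0.53), which also process ends, fell less on the log2 scale. Among the partners of BRCA1, PALB2, which joins BRCA1 to BRCA2, had the largest change, from 98.05 and 101 CPM to 21.4 and 20.6 CPM (-2.24 ± 0.09, edgeR adjusted p = 7.87e-09). BRCA2, which acts with PALB2, went from 82.2 and 76.5 to 39.3 and 41.8 CPM (-0.97 ± 0.09). Both lie in chromosomal stretches whose genes fell together, described further below. In the deficient pair PALB2 changed by -0.18 and BRCA2 by 0.04, and the differences between backgrounds, -2.06 and -1.01, passed the test. The helicase BRIP1 (0.77) and SEM1, a small partner of BRCA2 (0.66), rose. The translocase RAD54B fell (-0.90).

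End protection changed in both directions and by less. TP53BP1, which encodes 53BP1, went from 63.1 and 63.4 CPM to 113 and 122 CPM (0.89 ± 0.08), while its partner RIF1 went from 444 and 408 to 284 and 324 CPM (-0.49 ± 0.09). TRIP13, which takes shieldin apart (0.52), DYNLL1, which binds 53BP1 and MRE11 (0.48), and CTC1 of the CST complex, which fills in ends (0.68), rose. The shieldin genes SHLD1 (-0.36), SHLD2 (-0.06), SHLD3 (0.21) and MAD2L2 (0.14) did not pass the test, nor did POLQ of theta-mediated end joining (-0.05). In classical end joining the ligase LIG4 (-0.80), the nuclease DCLRE1C (-0.75) and the kinase PRKDC (-0.36) fell, and NHEJ1 rose (0.82). In all, 6 of 24 genes of the list rose and 6 fell, close to the shares of all genes.

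The targets of the drugs were lower. PARP1 went from 281 and 279 CPM to 145 and 136 CPM, a log2 fold change of -0.99 ± 0.06 (edgeR adjusted p = 1.98e-07), with no overlap between the groups. PARP2, the second enzyme that acts at breaks, went from 114 and 109.8 to 73.3 and 77.9 CPM (-0.56 ± 0.07). Both also fell in the deficient pair (-0.55 for PARP1 and -1.26 for PARP2), and the differences between backgrounds, -0.44 for PARP1 and 0.70 for PARP2, passed the test with opposite signs. Of the 10 PARP enzymes and cofactors tested 6 fell, including PARP3 (-1.40) and, on chromosome 13, PARP4 (-0.93). HPF1, which directs PARP1 to serine, rose by 0.36. APLF, a reader of poly(ADP-ribose) at breaks, fell from 13.3 and 13.4 to 4.51 and 6.08 CPM, and the base excision genes UNG (0.40), APEX1 (0.40) and APTX (0.39) rose slightly.

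At forks, 10 of 21 genes of protection and checkpoint fell and 3 rose, beside 27.8% and 25.9% of all genes. EZH2, the histone methyltransferase that also recruits nucleases to stalled forks, went from 187 and 181 CPM to 76.2 and 83.9 CPM (-1.20 ± 0.07). The checkpoint kinase CHEK1 went from 230.1 and 216 to 109.9 and 109 CPM (-1.03 ± 0.07), and CHEK2 (-0.78) and the translocase ZRANB3, which remodels forks (-1.27), fell. REV3L, the catalytic subunit of the translesion polymerase zeta, moved the other way, from 132 and 122 CPM to 250.2 and 277 CPM (1.05 ± 0.08). It changed by -0.25 in the deficient pair, a difference of 1.30 ± 0.11 (edgeR adjusted p = 5e-06). RADX, a factor that binds single-stranded DNA at forks, rose from 4.35 and 5.32 to 9.23 and 10.4 CPM. Of the Fanconi anemia genes, which repair crosslinks, 5 of 15 fell and 2 rose, beside the same 27.8% and 25.9%. The deubiquitinase gene USP1 (-0.93) fell most among them. SLFN11, whose loss is known to make cells tolerate PARP inhibitors, stood at 7.02 and 6.74 and then 5.52 and 8.04 CPM, a log2 value of -0.03 ± 0.22 (edgeR adjusted p = 0.935).

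Of 24 ABC transporters, 5 rose and 8 fell, beside 25.9% and 27.8% of all genes. ABCB1, the efflux pump of several PARP inhibitors, was barely counted, at 0 and 0.138 CPM and then 0.659 and 0.375 CPM, and did not pass the test (edgeR adjusted p = 0.0518), though it passed under 10 of 16 alternative settings, with adjusted p from 0.00572 to 0.223. ABCG2 did not either (0.766 and 0.449, then 0.486 and 0.416 CPM). ABCC1 went from 128 and 127 to 79.8 and 74.2 CPM (-0.73 ± 0.07) and rose by 0.64 in the deficient pair, a difference of -1.37 that passed the test. The largest change was in ABCA1, a cholesterol exporter, from 3.99 and 5.12 CPM to 41.5 and 41.7 CPM (3.18 ± 0.15), and here too the deficient pair went the other way (-0.44).

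The genes with the largest changes in each direction came from many pathways. Among genes that reached 5 CPM, 6 of the 12 that rose most had no count in the parental libraries. These 6 were tested through other libraries and could only rise, so their direction is no finding and the bounds only describe the counts. SALL3, a zinc finger factor of development, reached 31.5 and 36.3 CPM, at least 604-fold higher against a floor of 3 counts over the parental group. GLB1L3 (14.5 and 14.5 CPM, at least 260.3-fold), PEG3, an imprinted zinc finger gene (11.3 and 9.95 CPM, at least 192-fold), KLK5, a secreted serine protease (10.9 and 8.04 CPM, at least 172-fold), COL23A1, a transmembrane collagen (10.2 and 8.37 CPM, at least 168-fold), and the olfactory receptor gene OR4C6 (9.89 and 7.70 CPM, at least 159-fold) completed them. The other 6 were near 0 in the parental cells. GJA1, the gap junction protein connexin 43, went from 0.323 and 0.207 to 58.1 and 54.4 CPM (7.73 ± 0.25), the glutamate receptor subunit GRIN2A from 0.0806 and 0.0691 to 24.98 and 27.4 CPM (8.38 ± 0.35), and the inflammasome sensor NLRP1 from 0.161 and 0.138 to 29.9 and 26.2 CPM (7.52 ± 0.28). NPTX2 had 2 counts in the parental libraries and 627 in the resistant ones, a ratio of 319-fold (exact 95% interval 87.9 to 2638). Exact intervals here and below cover the counting error of summed counts alone, not the spread between libraries. HOXB9 and COL6A1 are described with their families below. SALL3 and COL23A1 also rose in the deficient pair (edgeR adjusted p = 6.87e-07 and 0.00223), while GJA1 stood at a log2 fold change of -0.19 there.

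Of the 12 genes that fell most, 5 lie close together at the start of chromosome 13. MUC4, a membrane mucin, went from 393 and 380.0 CPM to 1.87 and 1.29 CPM (-7.91 ± 0.13, edgeR adjusted p = 2.85e-11), CDH13, an anchored cadherin, from 20.5 and 22.5 to 0.0694 and 0.125 CPM (-7.77 ± 0.22), and SPARC, a secreted matrix protein, from 54.3 and 56.1 to 0.520 and 0.749 CPM (-6.45 ± 0.13). CLDN6, a claudin of embryonic epithelia, had 11.2 and 12.8 CPM in the parental libraries and no count in the resistant ones, at least 212-fold lower. The kinase PTK6 (11.2 and 11.03, then 0.173 and 0.208 CPM), DCAF12L1 and KLHL33 were the rest. A lack of overlap between the groups was part of the rule that chose these genes, so it is no finding.

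Genes of chromosome 13 were lower as a whole in the resistant cells. Its 238 tested protein-coding genes had a median log2 fold change of -1.05, 189 fell and 12 rose, and 127 (53.4%) fell at least 2-fold. On the other chromosomes the median lay between -0.226 and 0.289, and 3.05% to 13.6% of genes fell at least 2-fold. The shift was alike along the arm: in 3 consecutive parts of 80, 80 and 78 genes, in reference order, the medians were -1.08, -1.06 and -1.05. The medians of the 3 parts were 0.01, -0.09 and -0.79 in the deficient pair, where 3, 7 and 23 genes fell at least 2-fold, beside 7.38% of all genes. Summed over the 231 genes after GJB6, counts went from 1056905 in the parental to 552707 in the resistant libraries. Among these genes are the retinoblastoma gene RB1 (159 and 148 to 67.4 and 68.7 CPM, -1.18 ± 0.09), BRCA2, LIG4, PARP4, the efflux gene ABCC4 (-1.38), the receptor gene FLT1 and the interferon-stimulated gene EPSTI1.

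Within this arm, 7 genes next to each other, from MPHOSPH8 to GJB6, were nearly without counts in the resistant cells. Their counts summed to 12623 in the parental and 5 in the resistant libraries, while 0 of the 7 fell at least 2-fold in the deficient pair. ZMYM2, a zinc finger partner of histone deacetylase complexes, went from 115 and 107 CPM to 0.0347 and 0 CPM, 5833-fold (exact 95% interval 1046 to 230400.0) lower. PSPC1, a paraspeckle protein, was 1233-fold (exact 95% interval 341 to 10190.0) lower and MPHOSPH8, a reader of methylated histone H3 in the HUSH silencing complex, 755-fold (exact 95% interval 209 to 6238) lower. ZMYM5 (17.6 and 14.4 CPM parental), GJB2, which encodes connexin 26 (28.7 and 28.9 CPM parental), and GJB6, connexin 30 (4.64 and 3.49 CPM parental), had no count in the resistant libraries and were at least 279.9-fold, 507-fold and 70.8-fold lower. The next gene, CRYL1, fell by 3.49. GJA3, connexin 46, between ZMYM2 and GJB2, went from 31 counts to 0. The connexins GJB2 and GJB6 were thus absent from the counts of the resistant cells, in which GJA1 was high.

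A second stretch lies on chromosome 16. From UQCRC2 to TUFM, bounds that were chosen after the values were seen, 35 of 42 tested genes fell, 29 of them at least 2-fold, and 2 rose, with a median log2 fold change of -1.29. The other 578 tested genes of chromosome 16 had a median of 0.00 in the proficient pair, with 7.96% fallen at least 2-fold. In the deficient pair the median was 0.22 in the stretch and 0.47 in the rest of the chromosome. PALB2, the mitotic kinase PLK1, the stress factor NUPR1, the ATXN2L gene (-1.99) and UQCRC2 of respiratory complex III (-1.29) are in the stretch. Counts of EIF3C and EIF3CL, near-identical copies in this stretch, cannot be told apart. The number of copies of either stretch was not measured.

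**Figure D1:**
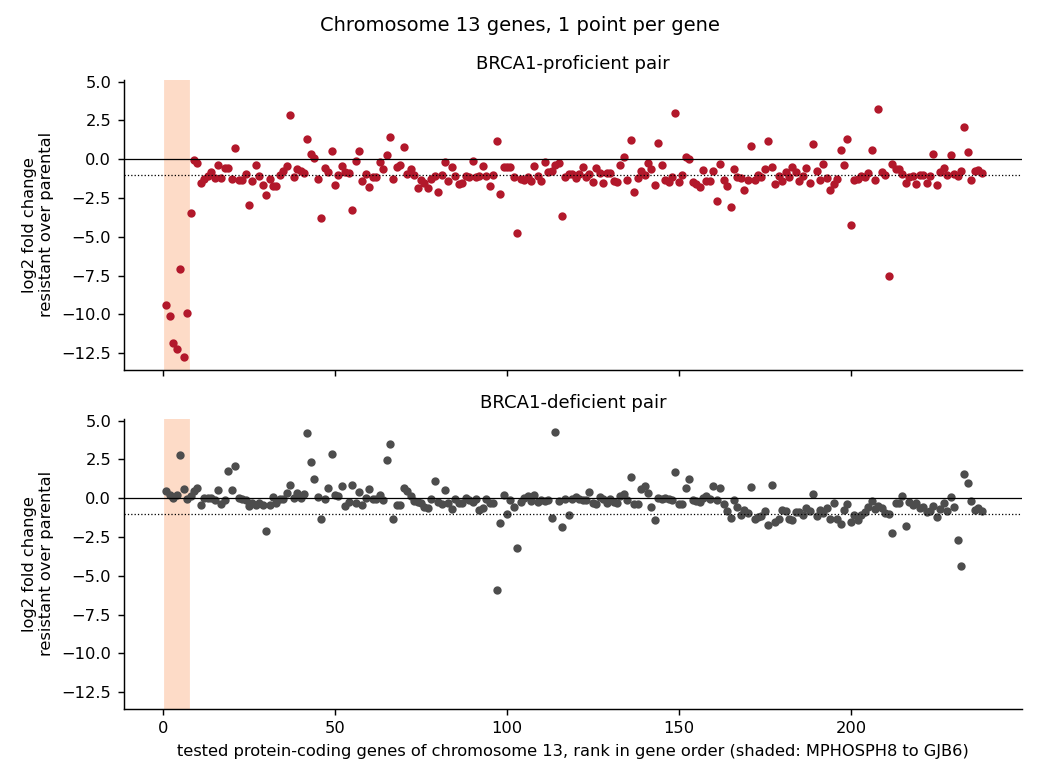
Log2 fold change (resistant over parental, vertical axis) of the 238 tested genes of chromosome 13 in reference order (horizontal axis, rank), for the BRCA1-proficient pair and for the deficient pair, with the stretch from MPHOSPH8 to GJB6 shaded. The proficient values run along a median of -1.05 over the whole arm and drop to the bottom in the shaded stretch, while most deficient values lie near 0 and those of the last 78 genes have a median of -0.79.

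Genes also rose in blocks of neighbours. Of 21 runs of at least 5 neighbouring tested genes that all passed the test with the same sign and at least 2-fold, 10 were higher and 11 lower in resistant cells, 7 of the latter on chromosomes 13 and 16. All 8 tested genes of the HOXB cluster, homeobox factors that set position along the body axis, rose, 2 of them, HOXB6 and HOXB13, from no parental count. HOXB9 went from 0.0806 and 0.0691 CPM to 15.1 and 13.99 CPM (7.53 ± 0.27), HOXB8 from 0 and 0.138 to 12.3 and 9.83 CPM, HOXB4 from 3.23 and 2.25 to 25.8 and 25.2 CPM and HOXB7 from 3.39 and 3.98 to 22.4 and 25.2 CPM. In each of these the 2 groups were far apart. HOXB3 rose by 2.11 and HOXB2 by 1.14, and HOXB6 and HOXB13, with no parental count and thus tested through other libraries, were at least 10.8-fold and 9.49-fold higher. The direction of HOXB6 and HOXB13 is therefore no finding. Of the neighbours on either side, SKAP1 (0.24) did not pass the test and CALCOCO2 rose by 0.20. In the deficient pair 5 of the 8 HOXB genes rose at least 2-fold too (12.2% of all genes), while HOXB2 fell by 3.72. The cluster's median log2 fold change was 5.10, or 3.24 with genes at 0 in 1 group set to their bound. Of the other HOX clusters, HOXD had 4 of 8 genes higher and 3 lower, and HOXA 2 of 9 higher and 2 lower.

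The clustered protocadherins, cell surface proteins that give neurons their identity, rose as well. All 16 genes of the beta cluster rose at least 2-fold, by a median of 4.10, against 0.13 in the deficient pair, or 0.08 there with genes at 0 in 1 group set to their bound. In the alpha cluster 13 of 14 and in the gamma cluster 16 of 21 tested genes rose, and 0 fell in either. Of all genes tested, 25.9% rose and 27.8% fell. PCDHGA3 and PCDHGA7 of the gamma cluster had no parental count and were tested through other libraries, so their direction is no finding. On chromosome 19, a run of 8 zinc finger genes from ZNF676 to ZNF730 rose by a median of 4.98. ZNF676 went from 2.06 and 1.73 CPM to 30.9 and 34.9 CPM (4.12 ± 0.19). The same gene went from 7.07 and 7.49 to 0.0360 and 0.116 CPM in the deficient pair, and the difference between backgrounds was 10.56 ± 0.35 on the log2 scale (edgeR adjusted p = 4.28e-09). A second zinc finger run on that chromosome begins with the potassium channel gene KCNN4 (1.01 and 1.14, then 33.8 and 25.6 CPM) and ends with ZNF221. It rose by a median of 3.20, against -0.11 in the deficient pair. Both runs were chosen by their proficient values. Their proficient medians were therefore bound to be high, and the contrast of medians between the pairs is no finding. Over all 497 tested genes named ZNF, 209 rose and 80 fell. Reads of protocadherin and zinc finger genes may be shared between close copies, since no source used here gives the counting rules.

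**Figure D2:**
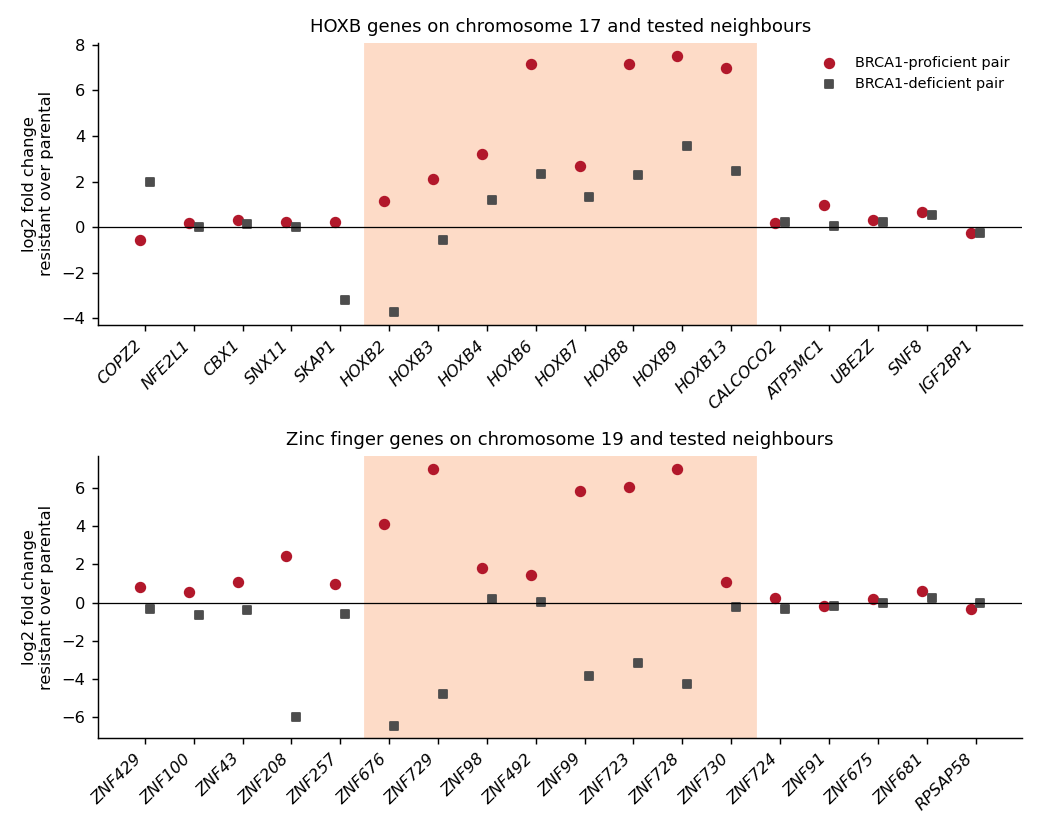
Log2 fold change (resistant over parental, vertical axis) of the genes of the HOXB run and of the chromosome 19 run from ZNF676 to ZNF730, each with up to 5 neighbours on both sides, in reference order (horizontal axis), for the proficient and the deficient pair. Genes of both runs (shaded) lie at 1 or above in the proficient pair by the rule that chose them. In the deficient pair several of the zinc finger genes, such as ZNF676 and ZNF729, lie far below 0.

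Genes of mitosis formed the most uniform downward group of the cell cycle. These genes are transcribed late in the cycle under the DREAM and B-MYB complexes, which bind a short element, the cell cycle homology region. Of 74 genes, 54 fell and 2 rose, beside 27.8% and 25.9% of all genes, with a median log2 fold change of -0.53. In the deficient pair 44 fell and 10 rose (27.0% and 28.9% of all genes), with a median of -0.27, and for 36 genes the change was lower and for 10 higher in proficient cells by the test of the difference (25.3% and 21.4% of all genes). The promoters of 4 members are shown for this element, from RefSeq at build GRCh38.p14, with TTTGAA in capitals, as stretches that end before the start of the gene.
PLK1: tcccagcgccgcgTTTGAAttcggggagga
CENPA: ggcggagcgagcgaTTTGAAcgcgagcggc
HMMR: tgtggggagaTTTGAATTTGAAaccggtag
CDC20: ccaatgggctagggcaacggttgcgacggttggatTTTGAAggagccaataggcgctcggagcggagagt
The stretches are chr16:23678847-23678876, + strand for PLK1, chr2:26786024-26786053, + strand for CENPA, chr5:163460594-163460623, + strand for HMMR and chr1:43358881-43358950, + strand for CDC20. The search ran on both strands from 250 bases before to 50 after every listed start, and a match at any start of a gene was counted. TTTGAA was found in 44 of the 64 list members with a promoter sequence. It was in 18.2% of the promoters of 27305 genes and in 14.1% of those of tested genes. The element was in 33 of 48 members that fell, 11 of 14 that did not pass the test and 0 of 2 that rose. Carrying it thus did not separate the genes that fell from those that did not pass. A match describes the letters and is no shown site.

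PLK1, the kinase that drives entry into and exit from mitosis, went from 185 and 191 CPM to 56.9 and 49.6 CPM (-1.82 ± 0.10, edgeR adjusted p = 1.11e-07). It rose by 0.37 in the deficient pair, a difference of -2.19 ± 0.14, and it lies in the chromosome 16 stretch. Of the 12 mitotic kinases 10 fell, among them BUB1 of the spindle checkpoint (438 and 432 to 194 and 202 CPM), CDK1, the engine of mitosis (504 and 474 to 231 and 256 CPM), AURKA (-0.85) and AURKB (-1.002). MELK rose slightly (0.28). At the kinetochore 11 of 15 genes fell. CENPA, the histone that marks centromeres, went from 109 and 111 CPM to 41.2 and 40.9 CPM (-1.42 ± 0.08), and NUF2 (-1.11) and NDC80 (-1.06), which hold microtubules, fell together, while their partner SPC24 rose (0.71). HMMR, a spindle protein, went from 369 and 342 to 123 and 133 CPM (-1.48 ± 0.08). Of the genes of mitotic exit, UBE2C (210.4 and 214 to 88.9 and 83.8 CPM) and CDC20 (182 and 192 to 92.1 and 79.2 CPM), which direct the anaphase promoting complex, changed most. LIN9, a subunit of the DREAM and B-MYB complexes (-1.32), and MYBL2, B-MYB itself (-0.62), fell. FOXM1 (-0.06) and CCNB1 (-0.15) did not pass the test, and the proliferation marker MKI67 stood at 499 and 504 and then 443 and 446 CPM (-0.17, edgeR adjusted p = 0.0339), a difference that missed the threshold under 13 of 17 alternative settings. Growth rates were not part of the files.

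Genes of the first cell cycle steps did not share this shift: of 53, 15 rose and 18 fell, with a median of -0.03. RB1 (-1.18), the phosphatase CDC25A (-0.95), CDK2 (-0.78) and the origin kinase CDC7 (-0.88) fell, and cyclins CCND1 (0.49), CCND2 (0.50) and CCNE1 (0.40) rose. Among the inhibitors of cyclin-dependent kinases, CDKN2B (p15) went from 39.6 and 37.3 CPM to 95.3 and 96.005 CPM (1.31 ± 0.09) and CDKN1A (p21) from 8.14 and 7.47 to 26.8 and 22.1 CPM (1.65 ± 0.16). Other targets of p53 did not move as one: of 15, 4 rose, such as TP53I3 (2.17) and BTG2 (0.91), and 5 fell, such as DDB2 (-0.94) and AEN (-0.997). Of all genes tested, 25.9% rose and 27.8% fell.

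Genes of the integrated stress response fell almost as a whole. In this pathway kinases that sense amino acid shortage, unfolded protein or heme loss phosphorylate eIF2, which slows translation but raises the factor ATF4, and ATF4 with its C/EBP partners then switches on genes of amino acid supply and tRNA charging. Of 56 genes, 48 fell and 2 rose, 29 fell at least 2-fold, and the median log2 fold change was -1.04. In the deficient pair 28 fell and 12 rose with a median of -0.15, and by the test of the difference 42 changes were lower and 5 higher in proficient cells. The element bound by ATF4 with C/EBP factors, TGATGNAA, is shown in capitals in promoters of 3 members, from RefSeq at GRCh38.p14.
ATF3: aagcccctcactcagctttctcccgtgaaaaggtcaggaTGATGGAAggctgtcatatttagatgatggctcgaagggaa
CEBPG: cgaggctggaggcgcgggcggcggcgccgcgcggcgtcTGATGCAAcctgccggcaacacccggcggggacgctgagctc
SLC1A5: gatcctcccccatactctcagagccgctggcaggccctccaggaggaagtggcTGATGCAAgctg
These are chr1:212565177-212565256, + strand for ATF3, chr19:33374033-33374112, + strand for CEBPG and chr19:46784900-46784964, - strand for SLC1A5, each within 250 bases before a start of its gene. RefSeq gives several starts for CEBPG and SLC1A5, and their element was not found at the first one listed. On both strands the element was in 18 of the 45 members with a promoter sequence and in 4.46% of all 27305 promoters. All 18 promoters with the element were among the 39 of members that fell, and 0 were among the 6 others.

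Among the transcription factors of the response 7 of 8 fell. TRIB3, a pseudokinase that restrains it, went from 301 and 305 CPM to 50.4 and 44.4 CPM (-2.68 ± 0.10), ATF3 from 71.8 and 64.9 to 11.1 and 11.3 CPM (-2.61 ± 0.11), DDIT3 (CHOP) from 162 and 157 to 39.1 and 38.5 CPM (-2.04 ± 0.09) and CEBPG from 269.8 and 257 to 102 and 112 CPM (-1.30 ± 0.07). The replicates were close and the groups well apart in each. The exception was ATF4 mRNA, at 314 and 320.1 CPM and then 339 and 305 CPM (0.02 ± 0.06, edgeR adjusted p = 0.784). ATF4 is known to be set largely by translation, which was not measured. PPP1R15A, the feedback subunit that removes the phosphate from eIF2, fell from 107 and 114 to 28.1 and 23.8 CPM, and of the eIF2 kinases EIF2AK1, the heme sensor, rose (0.39).

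The enzymes and carriers of amino acid supply fell with them. ALDH1L2, a mitochondrial folate enzyme, went from 195 and 184 CPM to 8.19 and 8.33 CPM (-4.52 ± 0.08, edgeR adjusted p = 4.69e-11), and MTHFD2 of the same pathway from 611 and 585 to 167 and 170.2 CPM (-1.83 ± 0.06). CTH, which makes cysteine (-2.52), SHMT2 of serine and glycine exchange (-1.10) and PSAT1 of serine synthesis (-0.76) fell. Each of the 8 amino acid transporters tested fell at least 2-fold. They included SLC38A2 (3569.6 and 3276 to 1200.5 and 1322 CPM), the cystine carrier SLC7A11 (187 and 181 to 62.1 and 63.4 CPM), the heavy chain SLC3A2 (237 and 244 to 81.7 and 70.2 CPM) and SLC1A5, a glutamine carrier (149 and 167 to 85.9 and 67.4 CPM). Of these 8, 3 rose and 3 fell in the deficient pair. SLC7A1, the arginine carrier (-1.65), lies on chromosome 13. All 12 cytosolic tRNA synthetases of the list fell, by a median of -0.81, from WARS1 (367 and 363 to 152 and 152 CPM, -1.26) to IARS1 (-0.34). Of the effectors, the growth factor gene VEGFA went from 95.5 and 95.8 CPM to 19.99 and 17.4 CPM (-2.35 ± 0.09) and the secreted glycoprotein gene STC2 from 531 and 526 to 172 and 169.5 CPM (-1.63 ± 0.08), and STC2 rose by 1.02 in the deficient pair. VLDLR, a lipoprotein receptor, was the effector that rose (0.83).

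**Figure D3:**
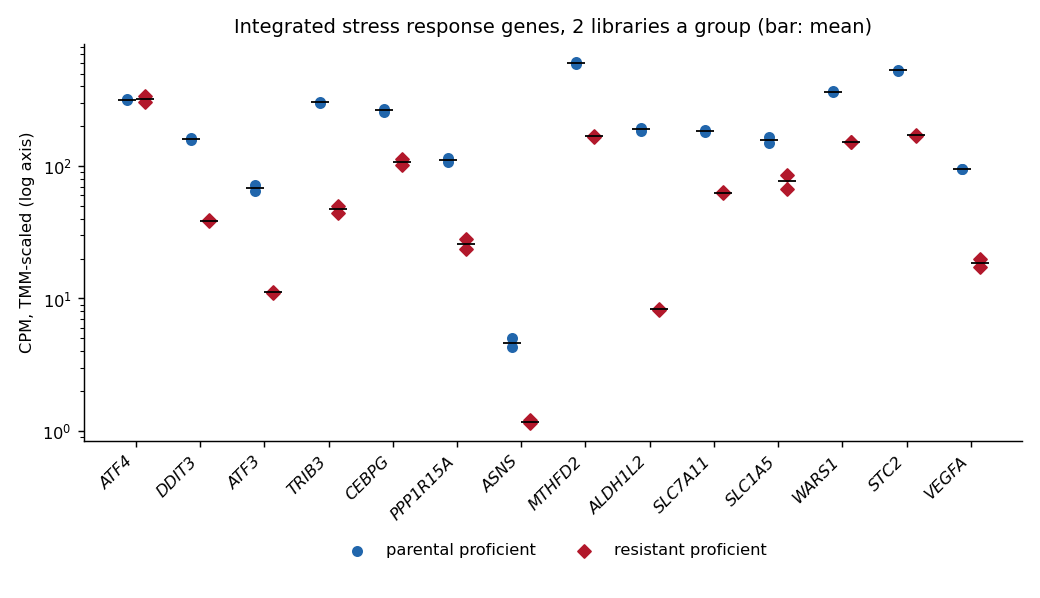
Level (CPM, log axis) of 14 genes of the integrated stress response in each of the 4 BRCA1-proficient libraries, parental and resistant. ATF4 is level across the libraries, and the other genes are lower in both resistant libraries, such as TRIB3 with 301 and 305 CPM against 50.4 and 44.4 CPM.

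The unfolded protein response of the endoplasmic reticulum fell more evenly in both backgrounds. In the proficient pair 15 of 24 genes fell and 1 rose, and in the deficient pair 16 fell and 3 rose. ERN1 (IRE1), one of its sensors, went from 42.7 and 41.8 CPM to 8.71 and 7.66 CPM (-2.36 ± 0.15) and changed by -0.51 in the deficient pair, a difference of -1.85 that passed the test. XBP1 (-0.68), ATF6 (-0.81), HERPUD1 (-1.29) and the chaperone DNAJB9 (-1.17) fell, and the calcium-binding chaperone CALR rose (0.29).

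Interferon-stimulated genes rose in the proficient pair and fell in the deficient pair. They are switched on when interferon, or nucleic acid sensed inside the cell, activates the factor ISGF3, which binds the interferon-stimulated response element. Of 67 genes, 35 rose and 7 fell, 22 rose and 4 fell at least 2-fold, and the median log2 fold change was 0.65. In the deficient pair 7 rose and 50 fell with a median of -0.90. By the test of the difference 50 changes were higher and 6 lower in the proficient cells, beside 21.4% and 25.3% of all genes. The response element, searched as GAAA and again GAAA after any 2 bases, is shown in capitals in promoters of 3 members that rose and 1, EPSTI1, that fell, from RefSeq at GRCh38.p14.
IFI44L: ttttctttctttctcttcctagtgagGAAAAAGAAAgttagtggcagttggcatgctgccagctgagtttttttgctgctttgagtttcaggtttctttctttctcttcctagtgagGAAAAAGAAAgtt
IFI6: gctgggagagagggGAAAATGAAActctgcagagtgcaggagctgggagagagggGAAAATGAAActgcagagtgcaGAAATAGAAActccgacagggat
SAMD9: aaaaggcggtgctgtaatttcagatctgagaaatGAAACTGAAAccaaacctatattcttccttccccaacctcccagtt
EPSTI1: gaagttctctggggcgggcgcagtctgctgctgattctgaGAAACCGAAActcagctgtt
The stretches are chr1:78620258-78620387, + strand for IFI44L, chr1:27672263-27672362, - strand for IFI6, chr7:93118070-93118149, - strand for SAMD9 and chr13:42992272-42992331, - strand for EPSTI1. The element was in 33 of 49 members with a promoter sequence and in 4.38% of all promoters, on either strand. It was in 19 of 29 members that rose, 3 of 4 that fell and 11 of 16 that did not pass the test, so carrying it did not separate the genes that moved.

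SAMD9, an antiviral factor that stalls translation, went from 4.92 and 4.53 CPM to 89.6 and 107 CPM (4.38 ± 0.13, edgeR adjusted p = 1.37e-09), and its neighbour SAMD9L from 3.55 and 2.04 to 38.6 and 37.97 CPM. MX1, which traps viral nucleocapsids, went from 1.65 and 2.04 CPM to 16.3 and 15.2 CPM (3.08 ± 0.14). It went from 55.6 and 56.1 to 9.51 and 9.81 CPM in the deficient pair, and the difference was 5.61 ± 0.19. IFI6 (3.83 and 3.80 to 32.4 and 30.5 CPM), IFI44 (1.61 and 1.52 to 19.8 and 21.5 CPM) and IFI44L (1.09 and 1.04 to 12.98 and 15.2 CPM) moved the same way, and IFI44L had the largest difference of these, 8.43 ± 0.24, since it fell by 4.70 in the deficient pair. IFIT1 (2.72) and OAS1 (1.70), which recognise or answer to viral RNA, rose. Of the 35 genes that rose, 22 had a mean under 10 CPM in the parental cells. The 7 that fell included LAMP3, a lysosomal protein (113 and 110.4 to 12.1 and 14.1 CPM), APOL6 (51.001 and 46.3 to 7.70 and 7.79 CPM), EPSTI1 on chromosome 13 (47.9 and 44.98 to 9.89 and 9.83 CPM) and SLFN5 (203 and 189 to 74.4 and 78.9 CPM). All 7 had a parental mean above 46 CPM, and all 7 also fell in the deficient pair.

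**Figure D4:**
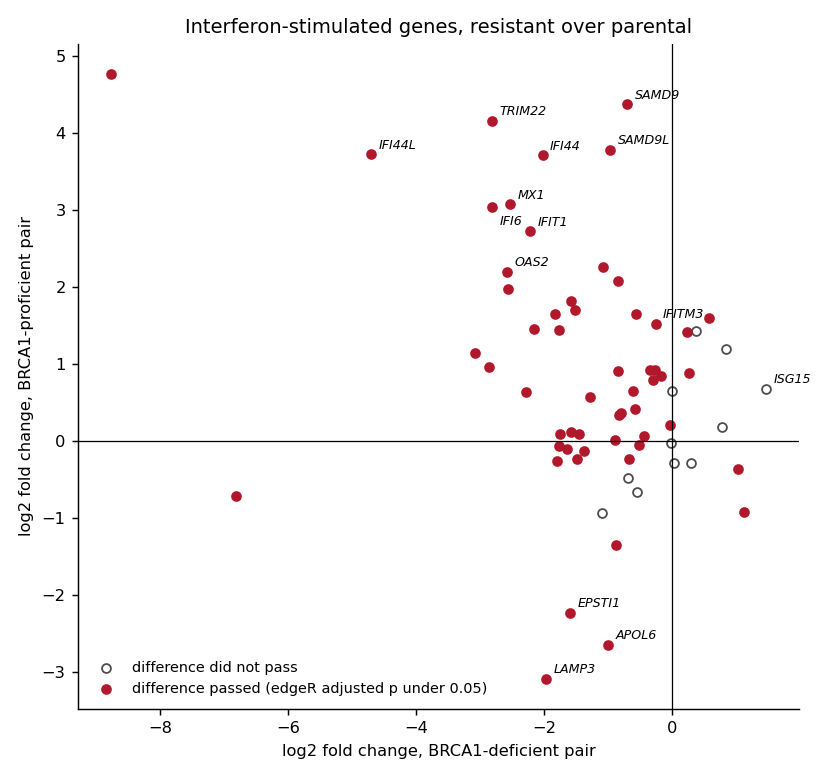
Log2 fold change of the interferon-stimulated genes, resistant over parental, in the proficient pair (vertical axis) and the deficient pair (horizontal axis), with named members labelled. Most points lie above 0 on the vertical and below 0 on the horizontal axis, and LAMP3, APOL6 and EPSTI1 lie below 0 on both. The points at the far left are MX2 and GBP4, with at most 10 counts a group in the proficient pair, where neither passed the test.

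Of 27 genes that drive this response 8 rose and 9 fell, close to the shares of all genes (25.9% and 27.8%). STAT2, a subunit of ISGF3, rose by 0.39. IRF1, a factor that also acts without interferon, fell from 32.7 and 33.4 to 6.45 and 6.54 CPM (-2.35 ± 0.12). Of the sensors, IFIH1 (MDA5) rose (0.67) and CGAS fell (-0.67). Interferon genes themselves were nearly uncounted, with 1 of 7 ligands testable. The class I heavy chains HLA-B (0.57) and HLA-C (0.60) rose, while 4 neighbouring genes of peptide supply fell: TAP1 (-1.27) and TAP2 (48.5 and 49.3 to 19.1 and 15.1 CPM), which carry peptides into the endoplasmic reticulum, and PSMB8 (-1.45) and PSMB9 of the immunoproteasome. They form part of a run of 7 lower genes from HLA-DQB1 to HLA-DMB on chromosome 6.

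Inflammatory cytokines fell. Of 10 cytokine genes 8 fell and 0 rose, with a median log2 fold change of -2.13. IL32 went from 23.3 and 25.96 CPM to 1.70 and 2.25 CPM (-3.65 ± 0.17), IL1A from 20.96 and 19.01 to 0.833 and 1.75 CPM (-3.98 ± 0.24), LIF from 27.1 and 29.5 to 8.81 and 6.54 CPM and IL6 from 12.2 and 12.9 to 4.30 and 3.66 CPM. All 10 fell in the deficient pair as well. Chemokines split: CXCL8 (interleukin 8) went from 313 and 290.1 CPM to 77.4 and 84.9 CPM (-1.89 ± 0.07), while CCL2, which attracts monocytes, went from 1.77 and 1.07 to 15.3 and 15.4 CPM (3.44 ± 0.24) and CXCL5 rose by 0.59. CCL2 (-2.65) and CXCL5 (-4.67) fell in the deficient pair, and both differences, 6.09 and 5.26, passed the test. Of 11 genes of NF-kB and its feedback 7 fell, among them NFKB1 (78.8 and 75.02 to 29.7 and 31.1 CPM), and 3 rose, TNFAIP3, ICAM1 and REL.

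Early response genes of the AP-1 and ERK pathway fell in the proficient pair. Of 20 genes 13 fell and 0 rose, with a median of -0.72, while in the deficient pair 10 rose and 5 fell. The difference was lower in proficient cells for 15 of the 20 and higher for 0. DUSP5, a phosphatase that ERK induces against itself, went from 185 and 182 CPM to 54.4 and 54.2 CPM (-1.76 ± 0.06) and DUSP4 from 22.2 and 22.4 to 3.12 and 2.46 CPM (-2.99 ± 0.15). FOSL1, an AP-1 subunit, went from 8.06 and 8.37 to 1.04 and 0.999 CPM (-3.003 ± 0.15). EGR1 fell by 1.35 and rose by 1.09 in the deficient pair, as JUNB did (-1.76, then 1.44). The ETS factors ETV4 (-1.35) and ETV5 (-0.999) fell.

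Targets of canonical WNT signalling rose. In this pathway WNT ligands at FZD and LRP receptors stabilise beta-catenin, which with TCF and LEF factors switches on targets, several of which feed back. Of 14 feedback targets 10 rose and 0 fell, beside 25.9% and 27.8% of all genes, with a median of 0.98. NKD2 had no parental count and was tested through other libraries, so its direction is no finding. AXIN2, which helps to degrade beta-catenin, went from 4.39 and 4.11 CPM to 18.3 and 21.1 CPM (2.21 ± 0.18), RNF43, which removes FZD receptors, from 6.21 and 6.57 to 14.5 and 15.2 CPM and TCF7 from 6.69 and 6.74 to 16.8 and 15.03 CPM. Of the 14 targets 6 rose and 1 fell in the deficient pair, with a median of 0.82, and by the test of the difference 3 changes were higher and 3 lower in proficient cells. AXIN2 was among those that rose there (0.99), and RNF43 was the 1 that fell (-1.39). Of 16 receptors 9 rose and 2 fell, FZD5 by 1.21 and LRP6 by 0.60 among the former. The receptor gene ROR2 had no parental count either, so its direction is no finding. In the core CTNNB1, beta-catenin, rose by 0.62 and its kinase GSK3B fell by 0.50. WNT5A, a ligand that mostly signals without beta-catenin, went from 16.4 and 16.2 CPM to 78.8 and 88.1 CPM (2.35 ± 0.12). WNT11 went the other way, from 1.65 and 1.52 to 0.208 and 0.333 CPM, and rose by 4.67 in the deficient pair. DKK3, a secreted relative of WNT inhibitors, fell from 28.5 and 28.8 to 7.74 and 8.91 CPM.

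In TGF-beta and BMP signalling the secreted regulators changed most. FST (follistatin), which binds activins, went from 23.4 and 24.2 CPM to 302 and 307 CPM (3.68 ± 0.07, edgeR adjusted p = 6.88e-11), and its ligand gene INHBA from 2.10 and 1.80 to 0.278 and 0.250 CPM (-2.85 ± 0.30). GREM1, which binds BMPs, went from 40.5 and 40.97 to 5.38 and 7.58 CPM (-2.66 ± 0.15) and BAMBI, a decoy receptor, from 5.44 and 4.98 to 0.833 and 0.749 CPM. BMP4 (1.58) and BMP2 (1.26) rose. Of 15 target genes 8 fell and 3 rose, with a median of -0.55, and in the deficient pair 2 fell and 11 rose, with a median of 0.91. The difference was lower in proficient cells for 11 and higher for 1. ID4, a target of BMPs, went from 42.05 and 39.3 CPM to 9.47 and 11.5 CPM (-1.96 ± 0.15) and rose by 1.88 in the deficient pair. TAGLN, an actin-binding protein, behaved likewise (-1.63, then 1.51).

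Markers of epithelial and of mesenchymal cells did not separate by direction. Of 15 epithelial genes 6 rose and 5 fell, and of 12 mesenchymal genes 2 rose and 4 fell. FN1 (fibronectin), a matrix protein, went from 7067 and 6937 CPM to 159 and 147 CPM (-5.52 ± 0.07, edgeR adjusted p = 4.48e-12), while VIM (vimentin), an intermediate filament, went from 15.6 and 15.1 CPM to 263 and 262 CPM (4.09 ± 0.07, edgeR adjusted p = 3.96e-11). These mesenchymal markers thus moved in opposite directions, with the groups far apart in each. S100A4 fell (-3.28) and CDH2, N-cadherin, rose (0.56). Of the epithelial genes CDH1, E-cadherin, went from 87.3 and 88.9 to 178 and 172 CPM (0.99 ± 0.07) and the ETS factor EHF from 12.7 and 12.1 to 99.8 and 115 CPM (3.12 ± 0.11). EHF went from 157 and 161 to 0.756 and 1.16 CPM in the deficient pair, and the difference was 10.46 ± 0.18. GRHL1 (-1.19), OVOL1 (-2.13) and the splicing factor ESRP1 (-0.70) fell.

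Markers of ovarian carcinoma and of its Müllerian lineage changed one by one. MUC16, which carries the tumour antigen CA125, went from 89.1 and 79.5 CPM to 855 and 787 CPM (3.28 ± 0.08), MECOM, a zinc finger oncogene, from 6.69 and 7.23 to 38.2 and 41.4 CPM (2.51 ± 0.11), and WT1 from 0.161 and 0.277 to 7.84 and 9.16 CPM (5.23 ± 0.46). FOLR1, the folate receptor used as a drug target in this tumour, went from 25.3 and 29.9 CPM to 3.47 and 2.37 CPM (-3.23 ± 0.21), and the oestrogen receptor ESR1 from 3.59 and 2.90 to 0.451 and 0.666 CPM. FOLR1 and CLDN6 also fell in the deficient pair. The lineage factors PAX8 (199 and 219.7, then 267 and 227 CPM) and SOX17 (28.3 and 27.2, then 31.3 and 27.4 CPM) did not pass the test.

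Receptor tyrosine kinases rose more often than they fell, 16 against 7 of 30, beside 25.9% and 27.8% of all genes. In the deficient pair 16 rose and 5 fell, and the medians were 0.49 in the proficient and 0.52 in the deficient pair. RET had no parental count and was tested through other libraries, so its direction is no finding. AXL, a receptor of the TAM family, went from 109 and 109.8 CPM to 7.32 and 8.41 CPM (-3.80 ± 0.10) and changed by 0.32 in the deficient pair, a difference of -4.12 ± 0.12. The VEGF receptor FLT1, on chromosome 13, went from 76.8 and 69.5 to 5.55 and 4.996 CPM (-3.79 ± 0.14). FGFR1 rose from 8.87 and 11.3 to 59.8 and 52.2 CPM (2.47 ± 0.14), with its ligand FGF2 from 0.887 and 1.73 to 11.5 and 12.03 CPM (3.14 ± 0.25), and FGFR2 and IGF1R rose by 0.92 and 0.64. EGFR (575 and 553, then 537 and 536 CPM) and MET (364 and 355, then 367 and 410.3 CPM) did not pass the test, while HBEGF, a ligand of EGFR, fell from 42.6 and 41.9 CPM to 6.32 and 7.08 CPM (-2.66 ± 0.12). Tissue factor, F3, which with AXL is among the targets of YAP, went from 279 and 266 to 30.3 and 31.7 CPM (-3.14 ± 0.07), and of the 18 genes of that list 10 fell and 4 rose.

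Genes of the matrix and of its receptors changed in both directions. Integrins rose in 9 and fell in 4 of 19 genes: ITGA9 went from 0.323 and 0.830 CPM to 31.6 and 29.8 CPM (5.69 ± 0.30), and ITGAV (463 and 421 to 1054 and 1104 CPM) and ITGB5 (95.5 and 95.5 to 234 and 217 CPM), which pair to bind vitronectin, rose together. Laminins fell in 6 of 11 and rose in 0, LAMB3 from 8.26 and 8.44 to 0.208 and 0.291 CPM. Collagens of type VI were higher, COL6A1 from 0.0806 and 0.0691 to 14.6 and 14.03 CPM (7.51 ± 0.46) and COL6A2 from 0.161 and 0 to 8.74 and 5.12 CPM (6.47 ± 0.77), and COL12A1 rose from 285 and 282 to 776 and 803 CPM. Of the proteases, the 5 tested kallikreins had no parental count and so were tested through other libraries, which makes their direction no finding, while ADAMTS12 went from 218 and 207 to 25.6 and 23.4 CPM (-3.11 ± 0.08), and the inhibitors TIMP3 (312 and 303 to 930.3 and 932 CPM) and TIMP2 (96.2 and 93.997 to 204 and 201 CPM) rose.

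Cholesterol synthesis rose in part, against the deficient pair. SREBP2 switches these genes on when sterols are low. Of 24 genes 9 rose and 2 fell, beside 25.9% and 27.8% of all genes, and in the deficient pair 3 rose and 16 fell. The difference was higher in proficient cells for 16 and lower for 3. HMGCS1, which makes the precursor of mevalonate, went from 209 and 188 CPM to 776 and 860.3 CPM (2.04 ± 0.08), and both resistant libraries lay far above both parental ones. Of 14 aldehyde dehydrogenase genes 11 rose and 1 fell, by a median of 0.76. ALDH1A2, which makes retinoic acid, went from 1.81 and 1.66 CPM to 15.4 and 14.4 CPM (3.10 ± 0.20), and ALDH1L1, ALDH3A2 and ALDH5A1 rose by 2.77, 0.94 and 1.03.

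Ribosomal protein genes rose in 45 of 68 and fell in 2, but by a median of 0.39 only, with RPL38 (181 and 177 to 457 and 410.5 CPM) and RPL23 (1.17) at the top. They rose in 47 and fell in 4 in the deficient pair. Genes of the respiratory chain rose in 27 of 46 and fell in 3, UQCRC2 of the chromosome 16 stretch being 1 of the 3. Of glycolysis genes, 10 of 20 rose, such as PGK1 (0.90), and 2 fell, HK1 (-0.86) and PFKP (-1.08). The antioxidant genes under NRF2 fell in 9 of 21 and rose in 3. The ferritin light chain FTL (-1.08) and SLC7A11, given above, were among those that fell. MYC went from 109.7 and 102 CPM to 41.5 and 40.4 CPM (-1.37 ± 0.10), rose by 0.78 in the deficient pair and differed between them by -2.15 ± 0.13. Its target ODC1, the first enzyme of polyamine synthesis, fell by 1.17.

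Genes that keep chromatin silent were more often lower. Of 26, 12 fell and 1 rose, a count that includes MPHOSPH8, ZMYM2 and ZMYM5 of the chromosome 13 stretch. DNMT3B, a de novo DNA methyltransferase, went from 111 and 114 CPM to 31.6 and 31.1 CPM (-1.84 ± 0.09) and fell as much in the deficient pair (-1.75, a difference of -0.08 that did not pass the test). Of 43 cancer-testis antigens, commonly silent genes, 35 were counted too low to be tested. The other 8 were tested because of the libraries in which they were counted, so their directions are no finding. MAGEA3, for example, had 0 and 0.0691 CPM and then 1.35 and 1.83 CPM. Of 22 imprinted genes 5 rose and 7 fell, beside 25.9% and 27.8% of all genes. Among those that rose were PEG3 and the overlapping ZIM2, which had no parental count, so their direction is no finding. Replication-dependent histone genes rose in 9 of 15, H1-2 from 0.484 and 0.933 to 13.1 and 9.62 CPM and H2BC12 from 15.5 and 14.9 to 43.7 and 43.4 CPM, and 1 fell. These histone and MAGEA genes have close copies whose reads may be shared.

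**Figure D5:**
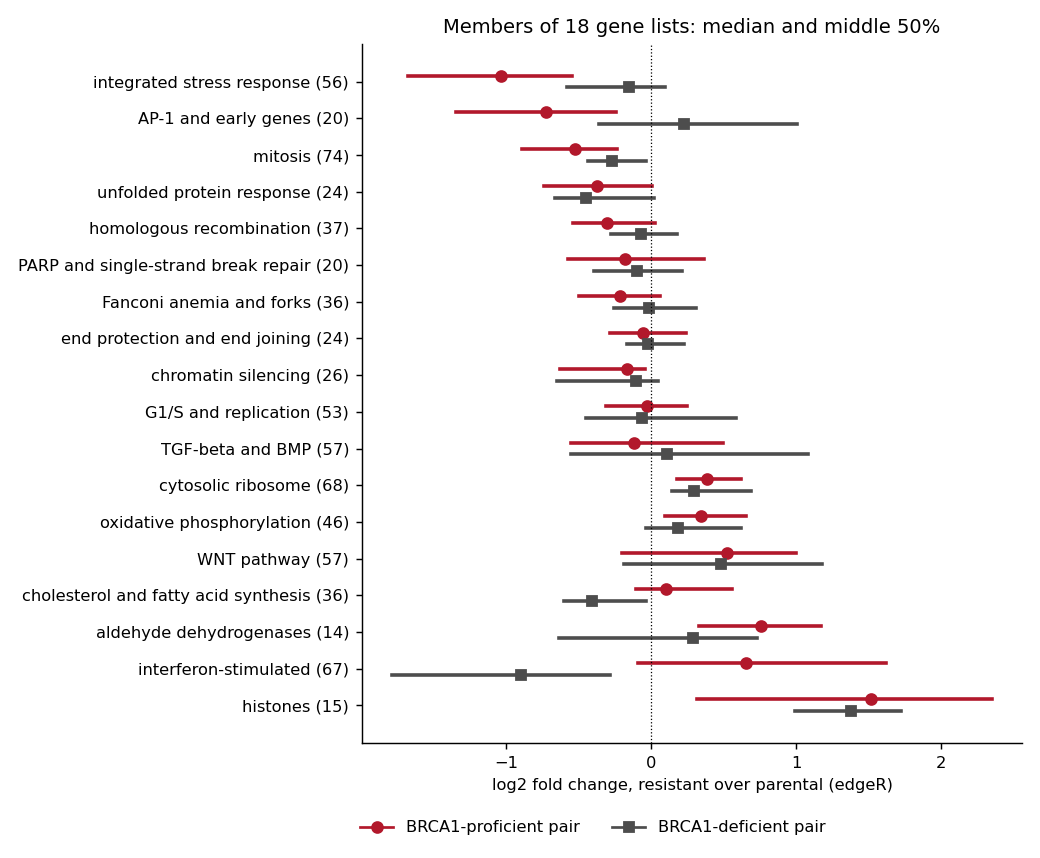
Median (point) and middle 50% (bar) of the log2 fold changes of 18 gene lists, resistant over parental, in the proficient and the deficient pair (horizontal axis). Of the lists drawn, the integrated stress response, the AP-1 and early genes and mitosis lie lowest in the proficient pair, at -1.04, -0.72 and -0.53, and the interferon-stimulated genes lie at 0.65 in the proficient and -0.90 in the deficient pair.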

How the data were processed

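Total RNA, extracted with an RNeasy kit per the labels' protocols, was sequenced from 8 libraries of 4 groups. The deposited values are raw read counts per gene symbol. Trimmomatic 0.39, featureCounts, Subread 2.0.1, DESeq2 1.24.0 and GRCh37 are named in the submitters' processing notes. No source used here gives strand or multi-mapping rules. All 8 count columns matched a library title, and 0 per-sample columns were left unused.

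Genes were kept by edgeR's filterByExpr (16221 of 32803) and fitted with edgeR 4.0.16 (R 4.3.3, limma 3.58.1) by the quasi-likelihood test over all 8 libraries, with TMM scaling and a term per group (residual df 4), so the 4 groups share 1 estimate of the spread. The contrasts were resistant against parental in each background and the difference between these. P-values were Benjamini-Hochberg adjusted over all genes tested. CPM values are TMM-scaled. SEs were computed from the log2 fold change and the F statistic. Exact intervals are binomial, from counts summed over the libraries of each group, and leave out the spread between libraries. Counting error aside, 2 libraries a side limit the precision. Data were also simulated (15741 genes) with a single dispersion, set beforehand for all genes and groups and not estimated from these libraries. There, 79% of genes changed 2-fold and 93% of those changed 4-fold were recovered in the proficient comparison. These rates do not give the recovery in the real libraries, whose spread differed between groups. DESeq2 1.42.0, other scalings, filters and left-out libraries were alternatives.

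The members and gene lists were chosen with earlier results of these data known. Named genes are BRCA1, the 12 largest changes per direction among protein-coding genes that reach 5 CPM, with no overlap and an adjusted p under 0.05, the 6 largest differences between backgrounds per direction, runs of at least 5 neighbouring genes with their flanks, and, for each role of a list, up to 4 members with the smallest p, up to 2 of the other direction, and every member of roles with at most 12. ABCB1, ABCG2, CCNE1, CHEK2, COL6A2, EGFR, EGR1, EPSTI1, ESR1, ETV4, GBP4, IFI44L, IFIT1, IGF1R, JUNB, MAD2L2, MET, MX2, NKD2, OAS1, OVOL1, PAX8, RET, ROR2, SHLD1, SHLD2, SHLD3, SLFN11, SOX17, WT1 and ZIM2 were chosen after their values were seen. Promoter sequences and gene order came from RefSeq at GRCh38.p14, another build than that of the files, so gene order is that of RefSeq. A few genes of the lists are not reported here by name.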

Additional observations from a re-analysis of the deposited data

Results flagged for a closer look

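The change with resistance differed between BRCA1-proficient and BRCA1-deficient cells for 3681 genes (22.7% of those tested) by edgeR's test of the difference, with a difference of at least 2-fold. The 6 genes with the largest positive differences were OR4C6 (log2 difference 15.90), ARMCX2 (15.88), PCDHB8 (12.64), ZNF729 (11.77), GLB1L3 (11.68) and ZNF728 (11.23), and the 6 with the largest negative ones were GJB2 (-13.31), ZMYM2 (-12.41), FOXL1 (-12.26), ZMYM5 (-11.85), GPR173 (-10.82) and MYH14 (-10.44). Their edgeR adjusted p lay between 1.51e-10 for ZMYM2 and 0.011 for GLB1L3. Each has a group with at most 15 counts over its libraries, and all but MYH14 a group with at most 2, so the size of these differences depends on the prior count of the fit and is no measured fold.

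The counts behind them differ in kind. GLB1L3 had 0 counts in the parental and 768 in the resistant proficient libraries and 1 and 1 in the deficient ones. OR4C6 (0 and 470 counts, then 8 and 0), ZNF728 (4 and 524, then 5 and 0), ZNF729 (3 and 405, then 65 and 2) and PCDHB8 (23 and 389, then 104 and 0) rose in the proficient pair and were at or near 0 in the resistant deficient cells. ARMCX2 was hardly counted in the proficient pair (0 and 2 counts) and went from 1711 counts to 0 in the deficient pair, so its difference rests on the latter. GJB2 (1548 and 0, then 1801 and 2595), ZMYM2 (5931 and 1, then 6763 and 7395) and ZMYM5 (854 and 0, then 681 and 643) belong to the stretch of chromosome 13 that was nearly without counts in resistant proficient cells alone among the 4 groups. FOXL1 (24 and 0, then 22 and 981), GPR173 (175 and 0, then 230 and 519) and MYH14, a non-muscle myosin heavy chain (534 and 15, then 85 and 3221), were lower in resistant proficient and higher in resistant deficient cells.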

How the results depend on the processing

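The number of genes at least 2-fold higher in resistant proficient cells, 1684, ranged from 1538 to 1864 over all alternatives, that of lower genes, 1583, from 1338 to 1630.0, and that of genes whose change differed between backgrounds, 3681, from 3160.0 to 3971, each within 1.5 times its main value. Leaving out each library in turn gave 1538 to 1864, 1367 to 1568 and 3160.0 to 3971. DESeq2 gave 1538, 1350.0 and 3309, and leaving out the genes of chromosome 13, an alternative chosen after seeing the data, gave 1676, 1439 and 3571. A replicate block gave 1681, 1586 and 3742. Over genes, the deviations of same-numbered parental and resistant proficient libraries had r = -0.0952, and those of the other 5 pairs of groups ranged from -0.132 to 0.212, the highest for resistant proficient with resistant deficient cells. With 2 numbers and no label for what they share, the libraries were treated as sharing only a number. No scaling moved the median of all genes by more than 0.05. The stress response kept 44 to 49 lower genes and a median of -1.16 to -0.93, mitosis 46 to 64 and -0.55 to -0.44, and the interferon-stimulated genes 32 to 37 higher genes and 0.58 to 0.73. Of all list values, 66 of 1428 counts and 26 of 714 medians moved, without a change of direction for a list that the report calls higher or lower.

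No named gene that passed the test changed sign. Without resistant replicate 2 HOXB2 (adjusted p = 0.0595), HPF1 (0.127) and MYBL2 (0.05) missed edgeR's threshold. Without parental replicate 1 HPF1 (0.077), ICAM1 (0.0651) and NHEJ1 (0.0522) missed it, and without parental replicate 2 HPF1 (0.12), HOXB2 (0.143), HOXB6 (0.0622), CXCL5 (0.101), ICAM1 (0.0809) and MELK (0.0994). ICAM1 also missed it without resistant replicate 1 (0.0792), and CALCOCO2 without any 1 of 4 libraries. Over all settings, passed or not, the log2 fold change of PAX8 ran from 0.12 to 0.39. PAX8 passed the threshold under 8 alternatives, MET under 5, and CCNB1, FOXM1 and EGFR only with the GC trend removed. The difference of ARMCX2 missed it without resistant proficient replicate 1 and that of GLB1L3 without parental deficient replicate 1. The cause was not tested. Genes under about 1 CPM rest on few counts, and 2 libraries a side limit what could be detected.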
